A study of Rattus norvegicus with 6 samples.

Results

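The calcium cycling genes described here were 10 genes of the cardiomyocyte, chosen by name from the earlier results of these arrays and found by matching the accession of each array probe to a rat gene table. They were represented by 20 probes, among 16569 genes that could be named on the array. Each gene was read from its brightest probe over all arrays, so the choice of probe used the level but not the group of a sample, whereas Casq2 was singled out with its difference between the groups already known. For this reason its values are given as a description without a p-value. Where a count of passing genes holds Casq2, nothing is read from it.

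The cells were neonatal rat ventricular cardiomyocytes (NRVCs), isolated from Sprague-Dawley rats 1 to 2 days old. Ventricles of 8 to 10 animals were pooled for a preparation and the cells were kept in serum-free Ultraculture medium on collagen. In 3 samples (C3a) recombinant C3a, the peptide that is released when complement C3 is cleaved, was present at 0.5 µg/ml for 12 h. The other 3 samples (control) came from control medium. The study asked with these arrays which genes of cardiomyocytes respond to C3a. The sample records do not say whether the samples of a group were separate cultures, so the p-values measure the spread between these samples, which may be technical.

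With each action potential, calcium enters the cardiomyocyte through the L-type calcium channel and triggers the opening of ryanodine receptors in the adjacent sarcoplasmic reticulum, from which most of the calcium for contraction is released. Relaxation follows when the pump SERCA2 returns calcium to the sarcoplasmic reticulum and the sodium-calcium exchanger moves the remainder out of the cell. Phospholamban and sarcolipin are small membrane proteins that inhibit the pump, and phosphorylation of phospholamban under beta-adrenergic stimulation relieves this inhibition.

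Each RNA sample was labelled with Cy3 and hybridised to its own 1-colour array. All 6 arrays were on 1 slide and in 1 scan, with control and C3a on opposite sides, so that position and treatment cannot be told apart. On control 1, 38.6% of the probes were well above background, against 53.7% to 57.3% elsewhere, and the median local background was 47 intensity units on control 1 against 23 or 24 on the remaining arrays. Of the cardiomyocyte markers, 7 of 8 had a probe, and all 7 were well above background on every array. Of the 3 ventricular markers, Myl2 and Irx4 were well above background on every array and Hey2 on 5 of 6, with 2 of 3 controls. Fibroblast markers were present as well (7 of 7 with a probe tested, of which 5 were well above background on every array). Of the endothelial markers 5 of 6 were well above background on every array, and of those of smooth muscle and pericytes 3 of 5. Some of the 6 macrophage markers were present too. Lyz2 and Cd68 were well above background on all 6 arrays and Csf1r on 5, while Cd14 was on 4, Adgre1 on 3 and Ptprc on 1.

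To show the regions in front of genes that the results turn on, the 250 bases before the annotated transcription start are printed for the pump gene Atp2a2, for Pln, which encodes its inhibitor phospholamban, and for Casq2. They are the plus strand of the rat assembly GRCr8 as given by RefSeq, at chr12:39733269-39733518 for Atp2a2, chr20:33172244-33172493 for Pln and chr2:192214306-192214555 for Casq2. Capitals mark matches to the motifs that were searched on both strands.
Atp2a2: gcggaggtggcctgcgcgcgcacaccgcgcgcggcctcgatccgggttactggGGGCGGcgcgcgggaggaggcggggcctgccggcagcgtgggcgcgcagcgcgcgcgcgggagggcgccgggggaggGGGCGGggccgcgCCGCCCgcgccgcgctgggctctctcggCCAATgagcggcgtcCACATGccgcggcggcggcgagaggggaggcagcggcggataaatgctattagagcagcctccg
Pln: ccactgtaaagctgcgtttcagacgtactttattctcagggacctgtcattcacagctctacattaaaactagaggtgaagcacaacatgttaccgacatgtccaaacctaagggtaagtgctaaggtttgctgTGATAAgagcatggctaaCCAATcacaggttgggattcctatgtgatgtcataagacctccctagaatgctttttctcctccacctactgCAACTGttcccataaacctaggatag
Casq2: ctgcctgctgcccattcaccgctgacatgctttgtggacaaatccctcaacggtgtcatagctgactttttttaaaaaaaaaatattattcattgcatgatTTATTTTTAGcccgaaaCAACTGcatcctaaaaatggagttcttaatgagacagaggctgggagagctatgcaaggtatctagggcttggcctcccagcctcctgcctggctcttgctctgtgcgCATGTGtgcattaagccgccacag
The window of Atp2a2 was 80.0% G or C and held 3 matches to the GC box GGGCGG, which was found in 30.5% of 33469 windows of the same length before rat genes. It also held 1 E-box (CANNTG, in 65.5% of all windows) and 1 CCAAT box (CCAAT, in 34.0%). The window of Pln was 44.0% G or C, with 1 E-box, 1 CCAAT box and 1 GATA match (AGATAA or TGATAA, in 16.9% of all windows). That of Casq2 was 46.4% G or C and held 2 E-boxes and 1 match to the binding sequence of MEF2, a transcription factor family of muscle, which was found in 2.96% of all windows. The TATA box (TATAAA, in 12.9% of all windows) and the CArG box (in 1.5%) were not matched in these 3 windows. The matches did not overlap one another. They are descriptions of the letters, and the arrays did not measure the activity of these regions.

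All 10 genes were well above background on all 6 arrays. Levels are given as the log2 signal of a probe after subtraction of the array's 75th percentile, a scale on which 0 is this percentile and 1 is a doubling of signal. On it the single values ranged from −0.026 for Jph2 to 9.47 for Pln. Different probes bind with different efficiency, so the levels of 2 genes do not give the order of their transcript amounts. A probe was kept for testing (23438 in all) where it was well above background in every sample of control, of C3a or of both. When these were split by brightness into 4 equal classes, 8 of the 10 probes fell into the top class.

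**Figure D1:**
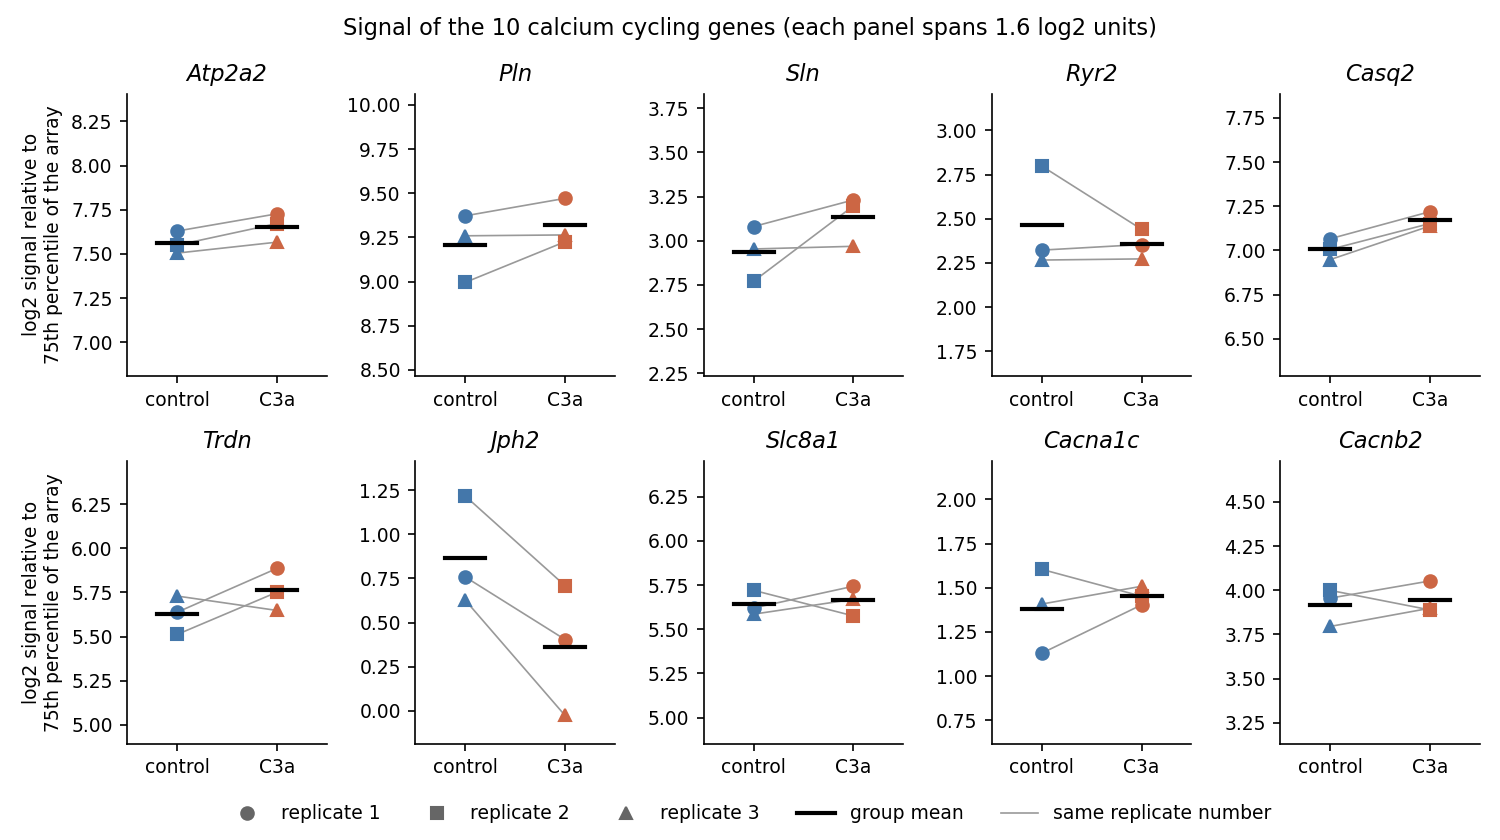
Level of the 10 calcium cycling genes on each array, as the log2 signal of the brightest probe minus the array's 75th percentile; symbols are the 3 replicate numbers of control and C3a, thick lines the group means and thin lines join equal numbers. Each panel spans the same range, and the groups overlap for every gene except Casq2.

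Of the genes other than Casq2, none passed the test of C3a against control by limma with Benjamini-Hochberg adjustment over all kept probes (adjusted p from 0.742 to 0.955). No kept probe on the array passed (0 of 23438, 0%, smallest adjusted p = 0.697). At an unadjusted p under 0.05 the number of probes was 1368 (5.84%), with 3.36% higher and 2.47% lower with C3a. The direction of this split depended on the filter, which 23425 probes passed in every C3a sample but 17519 in every control. Where a probe had to pass on each of the 6 arrays (17506 probes), 371 were higher and 639 lower. With 2 of 3 arrays required the numbers were 769 and 673, and with no filter 359 and 679. With the replicate number as a block, 3198 of all kept probes (13.6%) had an unadjusted p under 0.05, and none passed after adjustment (smallest adjusted p = 0.220). By mean the difference, C3a minus control, was above 0 for 8 genes and below 0 for Ryr2 and Jph2. The 8 turned below 0 without normalization between the arrays or when the arrays were scaled to spike-in probes, where the median of all kept probes itself moved from 0.048 to −0.28 and −0.40. The 8 of 10 (80%) stood beside 62.3% of all kept probes with a difference above 0. That share includes probes kept only through the C3a samples, whereas all 10 genes passed on every array. The 2 are therefore not a like comparison, and this holds for the other shares of all kept probes given below. The 8 also include Casq2, which was singled out with its difference known. The median difference was 0.084 for the 10 genes, 0.048 for all kept probes and 0.080 for the top brightness class. For probes well above background on all 6 arrays it was 0.040. Without control 1, the array with the higher background, no probe was called either. The differences were then 0.13 for Atp2a2, 0.19 for Pln, 0.27 for Sln, −0.18 for Ryr2, 0.19 for Casq2, 0.14 for Trdn, −0.56 for Jph2, 0.0099 for Slc8a1, −0.051 for Cacna1c and 0.049 for Cacnb2, so that only Cacna1c took the other sign. In such cultures, fewer cells of a type and less RNA per cell cannot be told apart.

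The pump gene Atp2a2, which encodes SERCA2, was at 7.63, 7.55 and 7.51 in the controls and at 7.73, 7.67 and 7.57 with C3a. The groups overlapped, since C3a 3 lay between the controls. The difference was 0.094 on the log2 scale (SE 0.095, 95% interval −0.13 to 0.32, adjusted p by limma = 0.777), an interval that runs from a 0.913-fold to a 1.25-fold signal. This probe was printed in 10 spots per array, with a mean SD between spots of 0.021. A second probe with the same accession gave 0.097, and one more, brought in through the accession of another Atp2a2 transcript, gave 0.13.

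The probe of Pln was the brightest of the 10, and none of its spots was saturated. It was at 9.37, 9.0 and 9.26 in the controls and at 9.47, 9.23 and 9.26 with C3a. Control 2 was the lowest array, and the other control values lay within the range of C3a. The difference was 0.11 (SE 0.13, 95% interval −0.20 to 0.42, adjusted p by limma = 0.807). The dimmer Pln probe was at 6.94, 6.88 and 6.80 in the controls and at 6.94, 6.74 and 6.77 with C3a, a difference of −0.056 (adjusted p by limma = 0.870), so that the sign differed between the probes of the gene.

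Sln, which encodes sarcolipin and is known in the heart mainly from the atria, was at 3.08, 2.77 and 2.95 in the controls and at 3.23, 3.20 and 2.97 with C3a. Its groups overlapped at C3a 3, and 2 of the C3a samples lay above all controls. The difference was 0.20 (SE 0.12, 95% interval −0.096 to 0.49, adjusted p by limma = 0.742), read from a single probe. Of 5 atrial markers 4 were tested, and these also had values above 0, with a median difference of 0.17 and none passing the test. The remaining marker, Bmp10, was well above background on 0 of 6 arrays and was not tested. Its difference, between values at the floor, was −0.48. The summed level of all 5 was 7.80 to 8.24 in the controls and 8.06 to 8.31 with C3a on the log2 scale. The part of these markers in the value of Sln was not tested.

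The pump was then set against its inhibitors within each array, where the scaling of the array cancels. The signal of Atp2a2 minus that of Pln was −1.74, −1.45 and −1.75 in the controls and −1.74, −1.55 and −1.70 with C3a, which is −1.65 ± 0.17 (SD, n = 3) and −1.66 ± 0.099 (SD, n = 3). The shift of −0.017 was within this spread (exact permutation test, two-sided, p = 0.9). For Atp2a2 minus Sln the values were 4.55, 4.78 and 4.55 in the controls and 4.50, 4.47 and 4.60 with C3a. The groups overlapped, and the shift was −0.10 (exact permutation test, two-sided, p = 0.3). With 3 samples against 3 the smallest p this test can give is 0.1, so that neither comparison could have passed the threshold. The sign of the first shift was not stable over the processing: it was 0.029 with quantile normalization, 0.080 with the mean of the probes of each gene and 0.083 without control 2. The shift against Sln stayed below 0 but varied in size, from −0.027 without control 2 to −0.24 with quantile normalization. In the latter the exact permutation test, two-sided, gave p = 0.1, the smallest it can give. A difference between probes within an array shows only whether they changed by unequal amounts.

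The other probes of these genes gave further values, with pairings chosen after the values had been seen and therefore given without a test. Against the dimmer Pln probe Atp2a2 stood at 0.69, 0.67 and 0.70 in the controls and at 0.79, 0.93 and 0.79 with C3a. Here the groups did not overlap and the shift was 0.15. With the probe of the other Atp2a2 transcript the shift was 0.021 against the brightest Pln probe and −0.065 against Sln, and the groups overlapped in both.

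**Figure D2:**
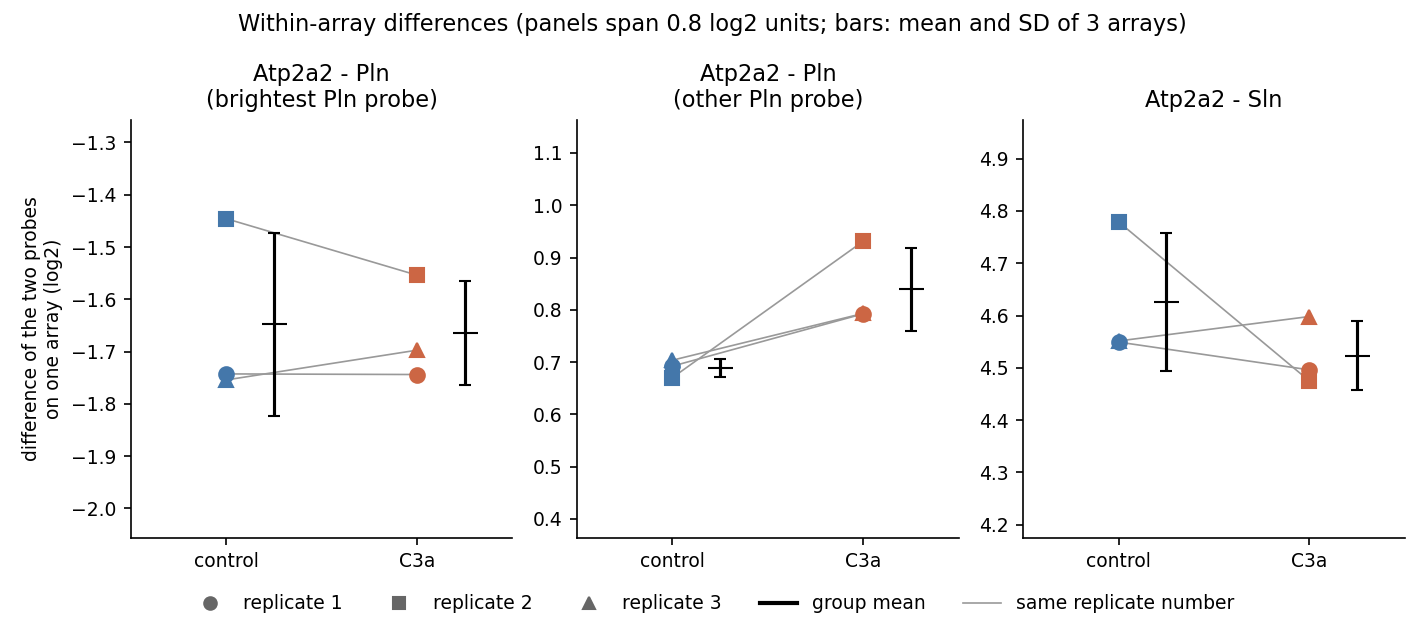
Signal of Atp2a2 minus that of the brightest Pln probe (left), the dimmer Pln probe (middle) and Sln (right) on the same array, on the log2 scale, for the 3 control and 3 C3a samples; bars are the mean and SD and thin lines join equal replicate numbers. The groups overlap on the left and right, with shifts of −0.017 and −0.10, and not in the middle, a pairing chosen after the values were seen.

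Among the genes of calcium release, Ryr2 encodes the ryanodine receptor of the heart, the release channel itself. It was at 2.32, 2.80 and 2.27 in the controls and at 2.35, 2.44 and 2.27 with C3a. Control 2 was the highest array and the remaining values lay close together. The difference was −0.11 (SE 0.16, 95% interval −0.47 to 0.26, adjusted p by limma = 0.843), and without control 2 it was 0.061. A second, dimmer Ryr2 probe gave 0.13 (adjusted p by limma = 0.770).

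Casq2 encodes cardiac calsequestrin, the protein that binds calcium in the lumen of the sarcoplasmic reticulum. Its signal was 7.07, 7.01 and 6.95 in the controls and 7.22, 7.15 and 7.14 with C3a. All 3 C3a samples lay above all 3 controls, with means of 7.01 ± 0.059 (SD, n = 3) and 7.17 ± 0.043 (SD, n = 3). It was the only one of the 10 genes whose groups did not overlap, a pattern found for 12.5% of all kept probes made up of 8.05% with C3a higher and 4.45% with C3a lower. The gene was singled out for this difference, so nothing is read from the count.

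The difference of Casq2 was 0.16 on the log2 scale, a 1.12-fold or 12.0% higher signal, and it was −0.16 without normalization and −0.29 with scaling to the spike-in probes. Relative to the median of all kept probes it was 0.11 under the main scaling and under each of these. That agreement was fixed in advance, since these scalings differ only by a constant per array. After quantile normalization the relative value was −0.0019. In the pairs of equal replicate number the difference under the main scaling was 0.15, 0.15 and 0.19. With 1 array left out at a time it lay between 0.13 and 0.19. The gene has 1 probe on the array, so no other probe bears on its value.

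Over the 6 arrays the genes whose signal went most closely with that of Casq2, among 8542 genes well above background on all of them, were Pofut2 (Pearson's r = 0.988), Lrtm2 (r = 0.988), RT1-T24-4 (r = 0.986), Zhx2 (r = 0.979) and Ror2 (r = 0.976). Among the calcium cycling genes r with Casq2 was highest for Atp2a2 (0.87) and Sln (0.75) and lowest for Jph2 (−0.52). The 6 arrays share a slide and a scaling and comprise both groups, so these values are a description only.

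Trdn encodes triadin, which anchors calsequestrin to the ryanodine receptor. It was at 5.64, 5.51 and 5.73 in the controls and at 5.89, 5.75 and 5.65 with C3a. The order of the arrays was mixed, with C3a 3 below control 3. The difference was 0.14 (SE 0.11, 95% interval −0.12 to 0.39, adjusted p by limma = 0.752), whereas a dimmer probe of the gene gave −0.27 (adjusted p by limma = 0.742).

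Jph2 encodes junctophilin 2, which holds the sarcoplasmic reticulum close to the T tubule. It had the largest difference of the 10 genes in size and was the dimmest probe among them. Its signal was 0.76, 1.22 and 0.63 in the controls and 0.40, 0.71 and −0.026 with C3a. The groups overlapped, since C3a 2 lay above control 3, but each C3a sample lay below the control of its own number, by 0.35, 0.51 and 0.65. The difference was −0.50, a 0.705-fold signal (SE 0.23, 95% interval −1.04 to 0.026, adjusted p by limma = 0.742). With the replicate number as a block the SE was 0.10 and the adjusted p 0.220. Over the kept probes 13.7% were lower with C3a in all 3 pairs. The value was below 0 in all 20 alternatives that were run, between −0.95 and −0.31, and the gene has a single probe here. This count is no evidence for the sign. Alternatives such as the filters on dim probes, the variance trend, the replicate block and the mean over probes leave the value at −0.50 by construction. Where it could move, it was −0.51 with quantile normalization, −0.83 without normalization and −0.95 with scaling to the spike-in probes. It was −0.43 with normexp and −0.68 to −0.31 with single arrays left out.

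**Figure D3:**
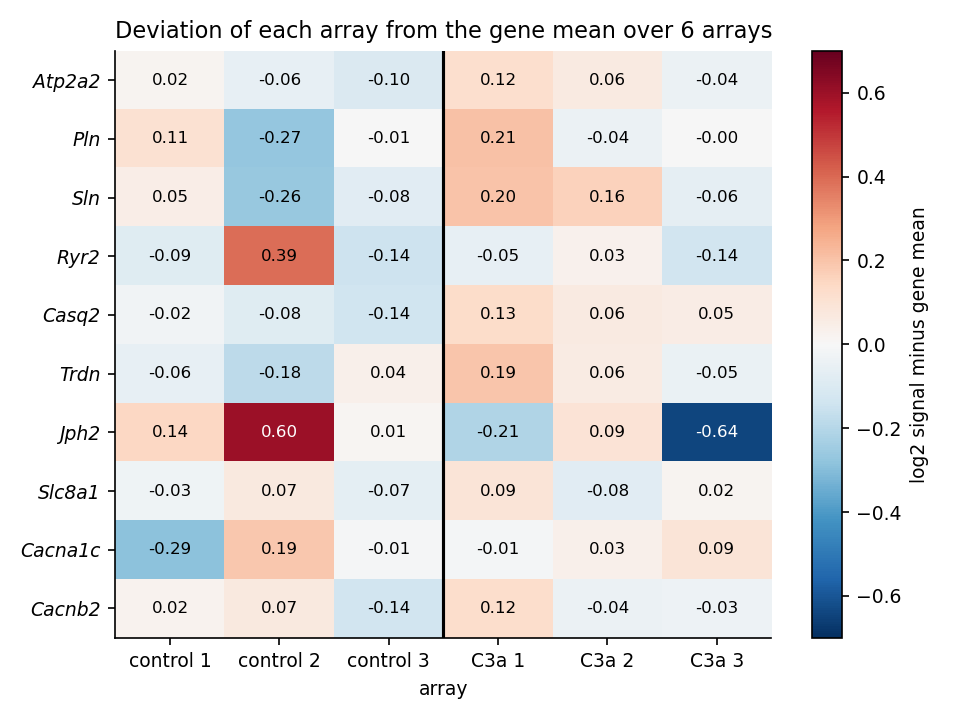
Deviation of each array (columns, controls left of the line) from the gene's mean over the 6 arrays (rows, the 10 genes), as log2 signal scaled to each array's 75th percentile; colour and printed value give the deviation. Jph2 spreads most, and Casq2 is the row whose C3a values all exceed its control values.

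Calcium entry is carried by the pore of the L-type channel, encoded by Cacna1c, and by its auxiliary beta subunit, encoded by Cacnb2. Cacna1c was at 1.13, 1.6 and 1.41 in the controls and at 1.40, 1.45 and 1.51 with C3a. The C3a samples lay within the range of the controls, and the difference was 0.074 (SE 0.14, 95% interval −0.24 to 0.39, adjusted p by limma = 0.875). Cacnb2 was at 3.96, 4.0 and 3.80 in the controls and at 4.05, 3.89 and 3.90 with C3a. These values overlapped as well, with a difference of 0.030 (SE 0.10, 95% interval −0.22 to 0.28, adjusted p by limma = 0.937).

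The dimmer probes of the channel genes gave values of the other sign. They were −0.27 and −0.23 for Cacna1c and −0.42 for Cacnb2, each with an adjusted p by limma of 0.742 to 0.773. These 3 probes were well above background on 2 of 3 controls, all but control 1, which had the higher local background.

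Slc8a1 encodes the sodium-calcium exchanger, the main route of calcium out of the cardiomyocyte. It was at 5.62, 5.72 and 5.59 in the controls and at 5.74, 5.58 and 5.67 with C3a. C3a held both the highest and the lowest of these values, and the difference was 0.021 (SE 0.096, 95% interval −0.21 to 0.25, adjusted p by limma = 0.955). It was the smallest difference of the 10 genes. Dimmer probes of Slc8a1 gave 0.30 and 0.27 (adjusted p by limma = 0.742 for both), and the mean over its probes was 0.20.

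**Figure D4:**
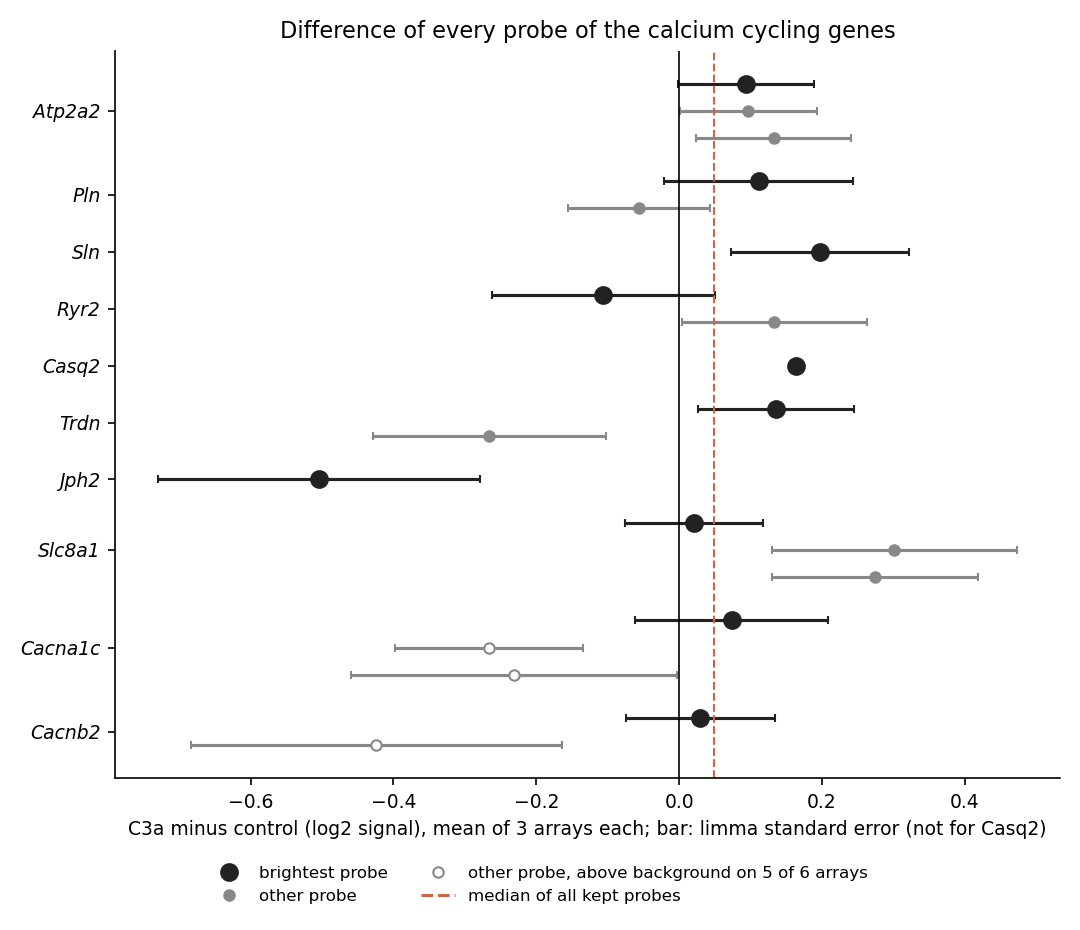
Difference, C3a minus control, of every probe of the 10 genes in log2 signal; bars are the standard error of limma (none for Casq2), large points the brightest probe, open points probes well above background on 5 of 6 arrays, and the dashed line the median of all kept probes (0.048). With scaling to the 75th percentile, dimmer probes lay on the other side of 0 from the brightest for Pln, Ryr2, Trdn, Cacna1c and Cacnb2, and on the same side for Atp2a2 and Slc8a1.

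The order of the arrays differed between the genes. C3a 1 was the highest array for 7 of them and control 2 for the other 3, while the lowest value lay on control 3 for 4 genes and on control 2 for 3. Higher in all 3 pairs of equal number were 4 genes, Atp2a2, Pln, Sln and Casq2, a pattern found for 25.3% of all kept probes. Under the block for replicate number their adjusted p, without Casq2, lay at or above 0.480. The cardiomyocyte markers Myh6 (0.22), Tnnt2 (0.21) and Myl2 (0.24), genes of the contractile apparatus, had values above 0 too, whereas Mybpc3 (−0.24) and Actn2 (−0.30), also contractile, had values below 0. The adjusted p by limma was 0.742 for each of these. Over the 7 cardiomyocyte markers 5 were above 0 and 2 below, with a median of 0.16, and their summed level was 11.8 to 12.2 in the controls and 12.1 to 12.3 with C3a on the log2 scale. The fibroblast markers had a median of −0.050 and summed levels of 6.50 to 6.70 and 6.50 to 6.73. The 5 endothelial markers tested had a median of 0.14. Summed levels over all 6 listed were 5.06 to 5.52 in the controls and 5.40 to 5.74 with C3a. For smooth muscle and pericytes the median was −0.029 and for the 3 macrophage markers tested −0.088. For the 3 ventricular markers it was 0.24, which is the value of Myl2, also counted among the cardiomyocyte markers. Irx4 was at −0.012. Hey2 was at 0.47 and was kept only through the C3a samples, where it was higher. The same holds for Csf1r (0.41) and Rgs5 (0.23), so these values are not independent of the filter. Lum (−0.54), Tcf21 (−0.050) and Cnn1 (−0.15) were also kept only through the C3a samples and were lower there. The part of the cell type markers in the values of the calcium cycling genes was not tested.

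Other genes of calcium handling were taken from a list of 75, of which 68 had a probe and 48 could be tested. None passed the test (0 of 48, beside 0% of all kept probes), and at an unadjusted p under 0.05 they were 1 higher (Cacna2d2) and 2 lower (Calr and Camk2a), which is 6.25% against 5.84% of all kept probes. Cacna2d2 was well above background on 1 of 3 controls and Camk2a on 2 of 3, so both were kept only through the C3a samples. For Cacna2d2 this is the group where it was higher, so its place in the count is not independent of the filter. Calr was well above background on all 6 arrays. By mean 31 were above 0 and 17 below, with a median difference of 0.047, next to 0.048 for all kept probes. That median was −0.28 without normalization and −0.40 with scaling to the spike-in probes. Some of the 31 genes were kept only through the C3a samples, so that count is not independent of the filter. Under the main scaling the median was also 0.047 over the 38 genes well above background on all 6 arrays. Groups did not overlap for 7 of the 48 genes (14.6%, against 12.5% of all kept probes), with S100a1, Prkaca, Micu2 and Vdac1 higher and Calr, Calm2 and Camk2a lower.

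By role, the median difference was 0.071 for the 12 genes of release and the sarcoplasmic reticulum lumen, 0.018 for the 11 of uptake and its regulators and 0.13 for the 4 of the junction and T tubule. It was 0.0047 for the 9 of entry, 0.016 for the 4 of extrusion and 0.058 for the 8 of mitochondrial uptake and release. In none of these groups did a gene pass the adjusted threshold.

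The largest differences among genes well above background on all arrays were found for Calr, which encodes calreticulin, a calcium-binding chaperone of the endoplasmic reticulum (−0.43, SE 0.15), and for S100a1, a calcium sensor that acts on the pump and the release channel (0.28, SE 0.13). Calr was at 2.42, 2.67 and 2.21 in the controls and at 1.97, 2.20 and 1.84 with C3a, so that its highest C3a sample lay just below its lowest control. Next came Cacnb3 (0.27), Prkaca, the catalytic subunit of protein kinase A (0.24), Tcap, the sarcomere protein telethonin (0.22), and Vdac1, the channel of the outer mitochondrial membrane (0.22). The adjusted p by limma was 0.742 for each of these genes.

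**Figure D5:**
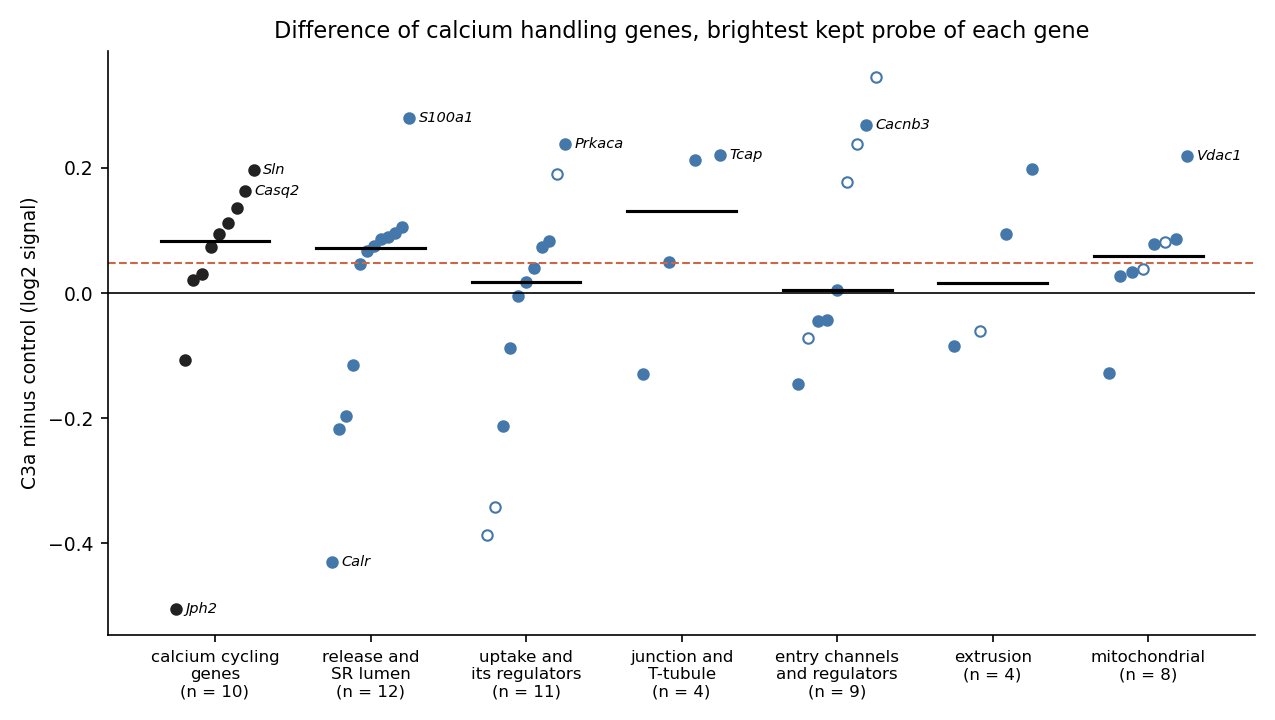
Difference, C3a minus control, of the calcium cycling genes and of the other calcium handling genes by role, in log2 signal scaled to each array's 75th percentile, 1 point per gene; short lines are medians, the dashed line the median of all kept probes, and open points genes not well above background on all 6 arrays. Values lay on both sides of 0 in every role, from −0.43 (Calr) to 0.34 (Cacna2d2) outside the 10 genes, and the median over all the listed genes falls from 0.047 to −0.28 without normalization and −0.40 with spike-in scaling.

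The near relatives of the 10 genes were mostly dim in NRVCs. Not well above background on any array were Atp2a3, Mrln, which encodes a pump inhibitor of skeletal muscle, Jph3, Slc8a2, Slc8a3 and Cacnb4. Strit1, which encodes the pump activator DWORF, was well above background on 1 of 6 arrays and the skeletal isoforms Casq1 and Jph1 on 4 each. The skeletal pump gene Atp2a1 passed on 5 arrays, with a difference of −0.34 (SE 0.23, adjusted p by limma = 0.742), and Cacnb1 on 5, with 0.18 (SE 0.14, adjusted p by limma = 0.752). Both were well above background on 2 of 3 controls and were kept only through the C3a samples. For Cacnb1 this is the group where it was higher, so its value is not independent of the filter. Jph4, the T-type channel genes Cacna1g and Cacna1h, and Cacnb3 were well above background on all 6 arrays. Their differences were 0.049, −0.043, 0.0047 and 0.27, with adjusted p by limma from 0.742 to 0.996. No probe was matched to Ryr1, Ryr3 or Cacna1d.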

How the data were processed

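Gene expression was measured in NRVCs on 1-colour Agilent rat arrays, 3 control and 3 C3a, grouped by the title of each sample. As deposited by the authors, the files hold spot intensity from Agilent Feature Extraction 11.5.1.1 (named in the submitters' processing notes), which subtracts background but does not normalize between arrays. A second file that the authors deposited holds log2 values of 36638 probes. These equalled the log2 signal computed here, scaled to the 75th percentile, to within 0.0062 at the median.

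Control spots and spots with an outlier flag were left out. Spots of a probe were averaged on the log2 scale, and each array's 75th percentile (207 to 367 intensity units) was subtracted. Precision is limited by the number of arrays. A probe was well above background where at least 50% of its spots were. Accessions were matched without versions to the RefSeq table of GRCr8, which named 21085 of 45598 probes (46.3%). The probe with the highest mean stood for its gene. The array was designed on another assembly, so probes are given without coordinates. The coordinates printed are those of the promoter sequences, which came from RefSeq (GRCr8).

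The groups were compared over 23438 kept probes in R 4.3.3 with two-sided tests of limma 3.58.1 (lmFit, eBayes) and a Benjamini-Hochberg adjusted threshold of 0.05. The limma step was tested on simulated data. Single within-array differences were tested with an exact permutation test in scipy 1.17.1. Figures were drawn with matplotlib 3.10.9. The members and lists were chosen with earlier results of these data known. Named are all 10 genes, the near relatives, the 6 listed genes with the largest difference among those well above background on all arrays, and the 5 genes closest to Casq2. Calcium handling genes that passed an unadjusted threshold or did not overlap, and the marker genes with values, were named after their values were seen.

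Deviations from the group means correlated at 0.28 to 0.32 between arrays of equal replicate number and at −0.26 to −0.093 between others. Deviations cancel within a group, so positive values for equal numbers go with negative ones for others. The numbers were taken to pair the samples in the replicate block and the pairwise differences only. The main test did not pair them. The pairing rests on the data, since the labels give only the number. Alternatives were quantile normalization, no normalization, scaling to 7 E1A spike-in probes, the percentile over detected probes, normexp on the median spot signal (offset 50), the authors' log2 table, a variance trend, stricter and looser filters on dim probes, the methods' t-test, the replicate block, the mean over probes and each array left out.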

Additional observations from a re-analysis of the deposited data

How the results depend on the processing

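The call for Jph2 and every other tested calcium cycling gene, none past the threshold by limma, was unchanged under all alternatives with an adjusted p. The replicate block left the differences as they were and changed no call (0 probes; Jph2 −0.50), but at an unadjusted p under 0.05 it raised the number of probes from 1368 to 3198. Without normalization 4 probes passed the adjusted threshold, with scaling to the spike-in probes 16, none of them calcium cycling or listed genes. By the methods' t-test, unadjusted, 1111 probes passed, with 1 listed gene (Vdac1) and 1 of the 10 genes, and after Benjamini-Hochberg 0. That gene is Casq2, which was chosen with its difference known, so its count is no evidence.

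Signs moved mainly with the scaling. Without normalization the differences were −0.23 for Atp2a2, −0.21 for Pln, −0.13 for Sln, −0.16 for Casq2, −0.19 for Trdn, −0.30 for Slc8a1, −0.25 for Cacna1c, −0.30 for Cacnb2 and −0.28 for the median of the listed genes. With the spike-in probes they were, in this order, −0.36, −0.34, −0.25, −0.29, −0.31, −0.43, −0.38, −0.42 and −0.40. Quantile normalization gave −0.079 for Atp2a2, −0.11 for Pln, 0.020 for Casq2, −0.095 for Slc8a1, −0.035 for Cacnb2 and 0.029 for Atp2a2 minus Pln. For Atp2a2 minus Sln it gave −0.24, with the sign of the main scaling. The percentile over detected probes gave −0.0080 for Slc8a1. The mean over probes gave 0.013 for Ryr2, −0.065 for Trdn, 0.20 for Slc8a1, −0.14 for Cacna1c, −0.20 for Cacnb2 and 0.080 for Atp2a2 minus Pln. The cause was not tested.

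With single arrays left out, 0 probes were called throughout. The differences ranged from 0.058 to 0.14 for Atp2a2, 0.0044 to 0.19 for Pln, 0.12 to 0.28 for Sln, −0.20 to 0.061 for Ryr2, 0.13 to 0.19 for Casq2, 0.073 to 0.19 for Trdn, −0.68 to −0.31 for Jph2, −0.020 to 0.064 for Slc8a1, −0.051 to 0.19 for Cacna1c and −0.031 to 0.071 for Cacnb2. They were −0.073 to 0.083 for Atp2a2 minus Pln, −0.14 to −0.027 for Atp2a2 minus Sln and 0.016 to 0.094 for the median of the listed genes. The sign turned for Cacna1c without control 1 (−0.051), for Ryr2 (0.061) and Atp2a2 minus Pln (0.083) without control 2, for Slc8a1 (−0.0075) and Cacnb2 (−0.031) without control 3, and for Slc8a1 (−0.020), Cacnb2 (−0.023) and Atp2a2 minus Pln (0.022) without C3a 1. Slide and scan could not serve as a block because there was 1 of each, so that alternative was not run. Normexp used the median spot signal because the files used here hold no mean.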
